A study of Mus musculus with 8 samples.

Results

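Of 23337 tumour OT-I T cells with a single called guide, 838 were Tcf7 Slamf6 precursor-like cells. They were selected on measured values: at least 1 UMI, a counted RNA molecule, of Tcf7 and of Slamf6, and no UMI of Klf2 or S1pr1. The number was 100 of 2552, 98 of 2616 and 172 of 6530 cells in anti-PD-1 replicates 1, 2 and 3, and 468 of 11639 cells in IgG. A guide call of exactly 1 was met by 23805 of 56359 barcodes, and 468 of those were left out because mitochondrial genes held over 10% of their gene UMIs.

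All cells were CD90.1+ OT-I T cells, CD8+ T cells with 1 transgenic receptor for an ovalbumin peptide, taken from mice with a Cas9 knock-in and transduced with a lentiviral CRISPR library against metabolic genes. CD90.1 is the reporter of the library vector, and cells were sorted on it from the primary tumour 7 days after transfer. The tumours were KPC_OVA, a mouse pancreatic cancer line that was made to express ovalbumin, grown in the pancreas. Recipients received anti-PD-1, an antibody that blocks the PD-1 receptor, in 3 libraries and control IgG in 1 library. Cells of both treatments therefore carried Cas9, the receptor and a guide, and only cells with a nontargeting guide (sgNT) had no gene targeted. Each treatment had more mice than libraries, and the mice came from independent experiments. The methods do not say which mice or experiment each library came from, so p-values measure the spread between libraries, which may be technical replicates, and treatment and experiment cannot be told apart.

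In tumours and chronic infection, CD8+ T cells that see antigen for a long time become exhausted, with inhibitory receptors on their surface. Precursor exhausted cells (Tpex) are a small pool within them that keeps TCF1, the transcription factor encoded by Tcf7, and the surface receptor Ly108, encoded by Slamf6. They are known to renew themselves and to give rise to more differentiated effector and terminally exhausted cells. Klf2 and S1pr1 mark cells able to leave tissue for blood and lymph. Leaving out cells with a UMI of either was meant to set Tpex apart from circulating memory-type cells. A cell without such a UMI may still express these genes, so the separation is partial.

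Markers that the rule did not use are described first. Ccr7, Tbc1d4, Sesn3 and Ikzf2, 4 genes listed for this cell type, all rose. The list was chosen with earlier results of these data known, so their rise is no independent check of the label. Members and other single-guide cells of each library were summed and compared with edgeR's quasi-likelihood test, with the library as a block and the 4 genes of the rule left out. Of 12828 genes tested, 1144 (8.92%) were higher in members and 1473 (11.5%) were lower at a Benjamini-Hochberg adjusted p under 0.05. Without replicate 3, 753 were higher and 918 lower. The median change over all genes was -0.02. Levels below are CPM, the gene's UMIs divided by all summed gene UMIs and scaled to a common total, and changes are log2 fold changes of the fit ± SE.

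Library depth bears on all detection in single cells. Members had a median of 15913.5, 14417.5 and 11988 UMIs under anti-PD-1 and 7812.5 under IgG, against 16842, 16303, 11968.5 and 6252 in the other cells. Members were thus shallower than the others in replicates 1 and 2 and deeper in IgG. Mitochondrial UMIs were a slightly higher percentage in members of every library, with medians from 1.74% to 3.45% against 1.38% to 3.16%, and their part in the results was not tested. Members of different libraries shared no barcode, and pairs of libraries shared 30 to 93 barcodes, counted over all barcodes before any filter. Barcodes with markers of another cell type and few T cell transcripts numbered 6, 4, 12 and 6, and a Tcf7 UMI was in 0, 1, 1 and 1 of them, a Slamf6 UMI in 0. Doublets were reduced only by the call of exactly 1 guide, and no doublet caller was run.

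Ccr7, the chemokine receptor that guides T cells to lymph nodes, was at 132, 118, 129 and 97.7 CPM in members, in the order anti-PD-1 replicates 1, 2 and 3 and IgG, which holds for all such values. It was at 25, 24.0, 11.7 and 18.6 CPM in the other cells of the same libraries. The 2 sets did not overlap, and Ccr7 rose by 2.64 ± 0.11 (edgeR, adjusted p = 8.03e-21). Sesn3, a sestrin that restrains the growth kinase mTORC1, was at 115, 96.2, 132 and 113 CPM in members and 37.4, 32.6, 36.0 and 45.8 CPM in other cells, a rise of 1.57 ± 0.076. Tbc1d4, a Rab GTPase-activating protein that controls glucose transporter traffic, was at 51.8, 74.6, 83.1 and 77.7 CPM against 21.9, 18.3, 28.8 and 42.2 CPM and rose by 1.35 ± 0.11. Ikzf2, which encodes the transcription factor Helios, was at 202, 136, 289 and 284 CPM against 118, 99.5, 102 and 115 CPM, a rise of 1.06 ± 0.086. For all 4 markers the lowest member library lay above the highest library of other cells. How many of all genes tested were separate in this way was not counted, here or for the genes below. All 4 markers had a UMI in 12%, 16.3%, 20.3% and 7.48% of members against 2.69%, 2.22%, 0.991% and 0.815% of other cells. None had one in 7%, 9.18%, 4.65% and 12.4% of members, so that single members often lacked some of them.

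**Figure D1:**
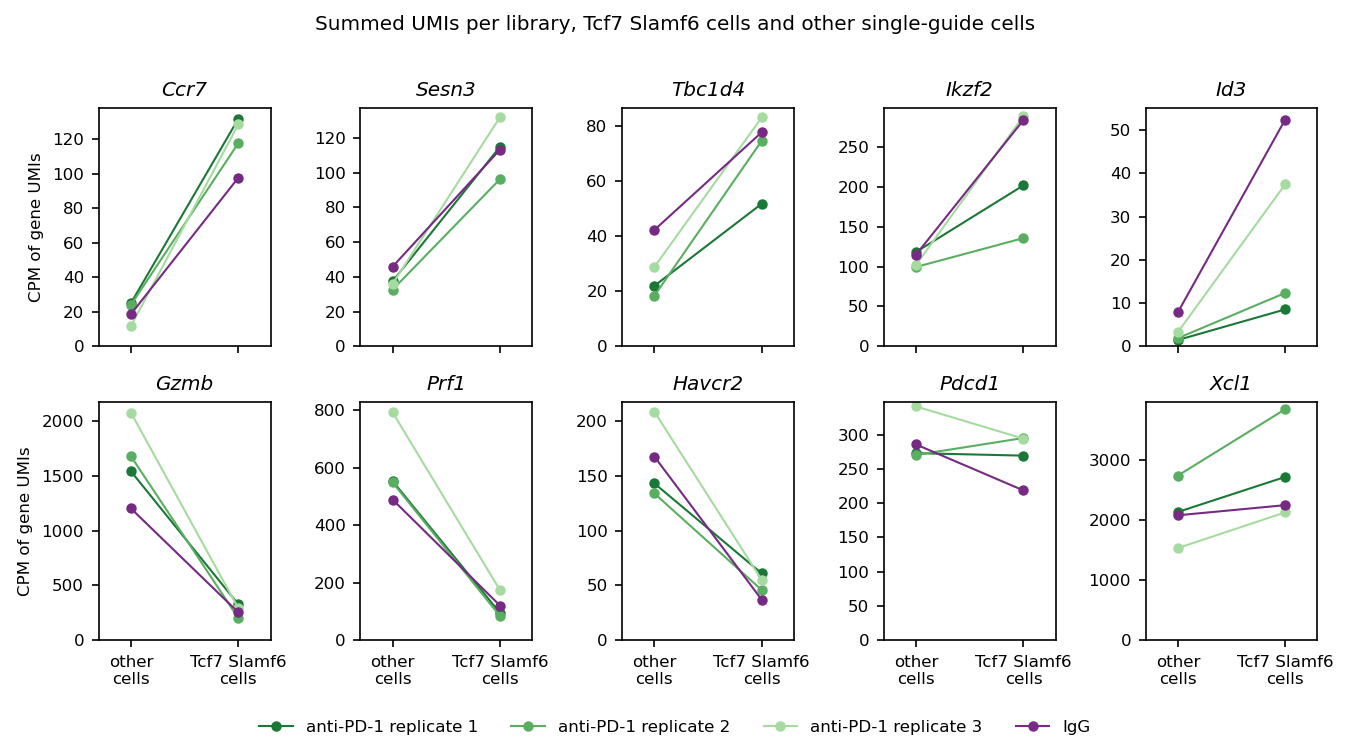
CPM of gene UMIs (vertical axes, from 0) of 10 genes in other single-guide cells and in Tcf7 Slamf6 cells, with a line for each of the 4 libraries. Ccr7, Sesn3, Tbc1d4, Ikzf2, Id3 and Xcl1 rise in every library and Gzmb, Prf1 and Havcr2 fall in every library, while Pdcd1 moves up in 1 library and down in 3.

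The rule's own genes are given as a description. Members held 1 Tcf7 UMI in 49, 57, 73 and 259 cells, and up to 12 UMIs in a cell. The cells just inside the rule, with 1 UMI of each gene, numbered 222 and had Gzmb, the main cytotoxic protease, at 351 CPM and Ccr7 at 104 CPM. Members with 2 or more UMIs of both numbered 242, with 189 CPM of Gzmb and 133 CPM of Ccr7. Just outside it, 654 cells with Tcf7 but no Slamf6 had 557 CPM of Gzmb and 83.8 CPM of Ccr7, whereas 4677 cells with Slamf6 but no Tcf7 had 1301 and 21.7 CPM. Pooled over the 4 libraries, the former levels were nearer to those of members, and 455 of those 654 cells were from IgG. Within single libraries this did not always hold. In replicate 3 Gzmb was at 1195 CPM in the former, 1575 CPM in the latter and 291 CPM in members. Ccr7 in replicates 2 and 3 was at 68.3 and 67.1 CPM in the former. It was at 24.5 and 13.7 CPM in the latter and 118 and 129 CPM in members. A further 167 cells met both conditions but held 1 UMI of Klf2 and S1pr1 together, with 703 CPM of Gzmb, and 365 held more. Only 4 cells were left out by the mitochondrial limit alone.

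The 15 genes with the largest rise in every library were led by Dapl1, at 18.2, 32.1, 39.9 and 50.5 CPM in members against 4.99, 3.26, 1.73 and 4.16 CPM in others (3.43 ± 0.20). Aff3, of a family of nuclear elongation factors, followed with 3.02 ± 0.17. Id3, an inhibitor of E protein transcription factors and a classic Tpex gene, was at 8.53, 12.3, 37.5 and 52.5 CPM against 1.44, 1.87, 3.25 and 7.84 CPM (2.96 ± 0.16). Its lowest level in members was near that of the other IgG cells, so the Id3 groups were wide apart within each library and close across libraries. Bcl6, a repressor that opposes Prdm1 in T cells, was at 16.5, 14.2, 13.3 and 8.75 CPM against 2.44, 2.19, 2.0 and 2.32 CPM (2.48 ± 0.21). Tnfsf8, the ligand of CD30, rose by 2.09 ± 0.15, Lrig1, an inhibitor of growth factor receptors, by 2.33 ± 0.18 and Tespa1, a T cell receptor signalling adaptor, by 1.94 ± 0.11. Cldn10, a claudin, rose by 2.55 ± 0.20, and Ms4a4c, Bdh2, Samd3, Arl4d and Arl5c rose by 1.81 to 2.11.

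The promoter sequences of 4 of these genes are shown because they held the core letters bound by TCF1 and its relatives, and they rose together in the cells chosen for Tcf7. Each is 300 bases of RefSeq sequence on GRCm38.p6, 5′ to 3′ on the strand of the gene, from 250 bases before its start, with CTTTGA or CTTTGT of either strand in capitals.
Bdh2 (chr3:135280971-135281270, plus strand): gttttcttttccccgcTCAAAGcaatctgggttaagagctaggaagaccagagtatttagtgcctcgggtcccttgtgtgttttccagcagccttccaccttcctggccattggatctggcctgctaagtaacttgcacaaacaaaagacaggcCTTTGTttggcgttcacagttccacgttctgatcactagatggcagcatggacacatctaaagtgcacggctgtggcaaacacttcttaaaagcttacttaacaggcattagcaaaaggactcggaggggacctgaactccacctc
Ms4a4c (chr19:11407411-11407710, plus strand): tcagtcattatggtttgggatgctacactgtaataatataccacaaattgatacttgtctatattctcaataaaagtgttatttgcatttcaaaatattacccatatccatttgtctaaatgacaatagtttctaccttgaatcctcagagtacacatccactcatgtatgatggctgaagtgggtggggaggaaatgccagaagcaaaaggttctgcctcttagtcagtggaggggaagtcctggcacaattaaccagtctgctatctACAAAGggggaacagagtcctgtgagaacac
Samd3 (chr10:26229457-26229756, plus strand): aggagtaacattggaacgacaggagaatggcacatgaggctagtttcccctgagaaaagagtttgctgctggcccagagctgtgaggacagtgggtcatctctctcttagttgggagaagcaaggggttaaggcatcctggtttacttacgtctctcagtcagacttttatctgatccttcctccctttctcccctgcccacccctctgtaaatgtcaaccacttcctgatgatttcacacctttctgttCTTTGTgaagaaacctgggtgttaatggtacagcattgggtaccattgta
Tnfsf8 (chr4:63861235-63861534, minus strand): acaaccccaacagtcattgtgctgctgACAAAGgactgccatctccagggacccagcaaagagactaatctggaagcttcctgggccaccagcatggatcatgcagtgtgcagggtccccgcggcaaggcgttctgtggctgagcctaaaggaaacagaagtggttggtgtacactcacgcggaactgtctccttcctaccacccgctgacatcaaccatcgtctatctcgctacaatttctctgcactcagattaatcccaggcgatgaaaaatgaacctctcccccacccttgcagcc

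Among the 15 genes, 11 had a promoter in the RefSeq table and 6 of these held such a core. Of the 15 genes with the largest fall, 14 had a promoter and 5 of these held one. Over all genes the share was 32.6% of 870 promoters of genes higher in members, 27.1% of 1153 of genes lower in members, 27.5% of 9705 of genes tested and 34.5% of all 27025. The share among higher genes was thus above that of genes tested and below that of all promoters, and a match is a description of letters, not of binding.

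Falls were led by the granzymes. Of 14 genes of granzymes, perforin and their granules 13 fell and 1 rose, with a median of -2.19. The one that rose was Gzmm, granzyme M, at 9.65 ± 2.63 CPM in members (SD, n = 4) against 3.92 ± 0.980 CPM in other cells, a low level that was higher by 1.31 ± 0.20 on the log2 scale. Gzmb, Gzmc, Gzmd, Gzme, Gzmf and Gzmg, serine proteases of cytotoxic granules, lie in one stretch of 144.6 kb at chr14:56117626-56262260 of GRCm38, and all 6 fell. Gzmb was at 326, 200.5, 291 and 253 CPM in members and 1544, 1682, 2081 and 1204 CPM in other cells, a fall of 2.59 ± 0.072 on the log2 scale (edgeR, adjusted p = 4.07e-26). Every member library was far below every library of other cells. Gzmf was at 0.569, 6.17, 4.44 and 2.25 CPM against 36.4, 66.0, 176 and 97.3 CPM. Members of all libraries together held 31 UMIs of Gzmf, 12 of Gzmd and 4 of Gzme. Of Gzmg they held 1 UMI, which put other cells 180.2-fold higher with a counting interval of 32.3 to 7117. In the other cells, 1 cell held 34.2% of the 4735 UMIs of Gzmg, and the genes from Gzmc to Gzmg are near-identical in part, so that the division of reads among them is uncertain.

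Genes outside that stretch fell too. Prf1, the pore-forming perforin, was at 93.8, 83.3, 173 and 119.7 CPM against 553, 548, 792 and 489 CPM and fell by 2.33 ± 0.068. Gzma fell by 2.06 ± 0.070, although 1 member cell held 16.4% of its 3249 UMIs in members. Entpd1, the ectonucleotidase CD39 of terminally exhausted cells, was at 9.67, 7.40, 18.6 and 14.8 CPM against 38.5, 37.0, 74.3 and 59.1 CPM and fell by 2.04 ± 0.11. In every one of these genes the member and other libraries were separate, though they were named only because their direction was the same in all 4 libraries. Fcer1g, a signalling adaptor of NK-type receptors, fell by 2.67 ± 0.19 and had no UMI in members of replicates 1 and 2. The others of the 15 were Sv2c, Tmem273, the long noncoding RNA Gm36723, Neb and Ifitm1, which fell by 1.90 to 2.36.

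**Figure D2:**
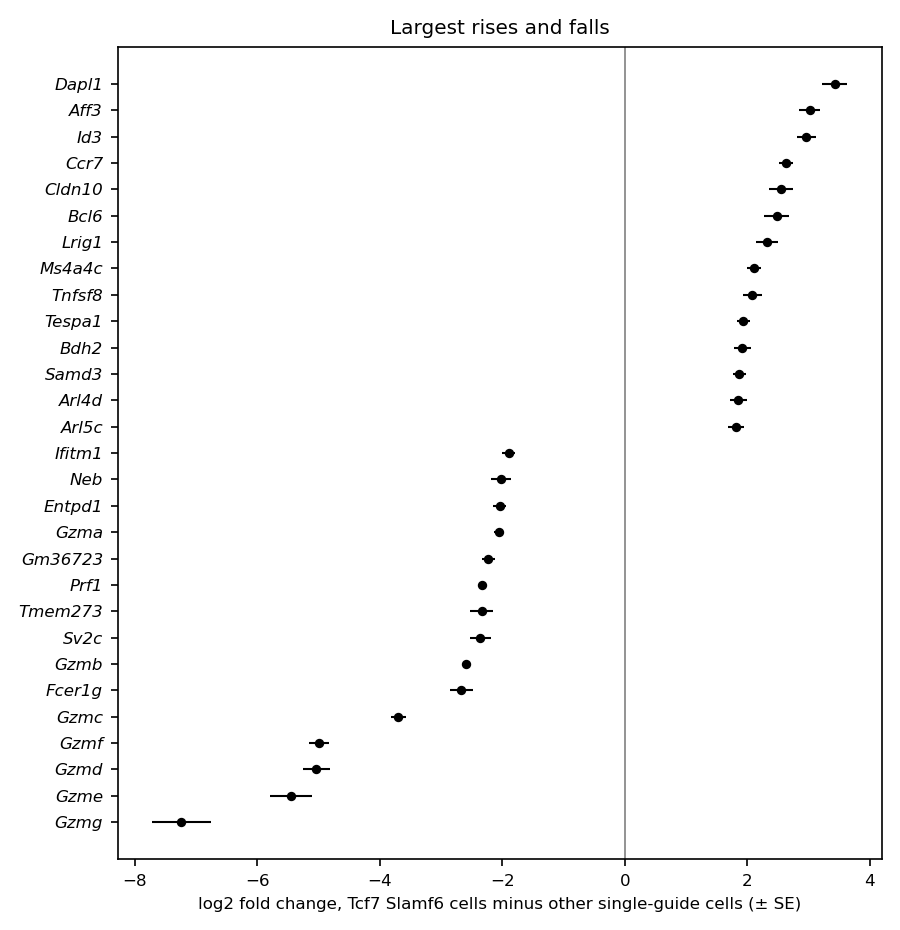
Log2 fold change ± SE (horizontal axis) between Tcf7 Slamf6 cells and other single-guide cells for 14 of the 15 largest rises and the 15 largest falls that had the same direction in all 4 libraries. Dapl1 stands highest at 3.43 and Gzmg lowest at -7.24, where members held 1 UMI.

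Transcription factors moved by role. Of 18 precursor and memory factors, 11 rose, 2 fell and 5 did not pass, with a median of 0.32 against -0.02 over all genes tested. Besides Id3 and Bcl6, Bach2, a repressor of effector genes, was at 34.8 ± 4.34 CPM against 10.6 ± 3.14 CPM (SD, n = 4 libraries) and rose by 1.69 ± 0.12. Myb, needed for Tpex self-renewal, rose by 1.47 ± 0.097, Satb1 by 0.68 ± 0.067, Eomes by 0.63 ± 0.11 and Tox, the factor that sets the exhausted state, by 0.43 ± 0.062. Lef1, the close relative of Tcf7, was at 25.9 ± 4.25 against 22.5 ± 2.53 CPM and did not pass (0.26 ± 0.12, edgeR adjusted p = 0.124). Tox2 and Ets1 fell by 0.52 and 0.18. Of 12 effector factors, 8 fell, 1 rose and 3 did not pass, with a median of -0.32. Prdm1, which encodes the terminal differentiation factor Blimp-1, fell by 1.61 ± 0.12, Id2, the counterpart of Id3, by 1.34 ± 0.057 and Nfil3 by 0.81 ± 0.13. Batf, an activation factor, rose by 0.25 ± 0.068, and Tbx21, which encodes T-bet, had a change of -0.24 ± 0.11 that did not pass.

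Surface receptors were divided. Of 14 inhibitory and exhaustion genes, 8 fell, 4 rose and 2 did not pass, with a median of -0.38. Pdcd1, which encodes PD-1, was at 269.6, 295, 294 and 219 CPM in members and 273, 271, 342 and 286 CPM in others, a change of -0.14 ± 0.058 that did not pass (edgeR, adjusted p = 0.0858). Havcr2, which encodes TIM-3, was at 60.9, 45.6, 54.9 and 36.7 CPM against 143, 134, 209 and 168 CPM and fell by 1.79 ± 0.090. The Pdcd1 levels overlapped, whereas every member library was below every library of other cells for Havcr2. Lag3 fell by 0.35 ± 0.052 and Ctla4 by 0.65 ± 0.065, whereas Btla rose by 1.03 ± 0.17.

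Among 17 costimulatory and TNF family genes, 10 rose, 2 fell and 5 did not pass, with a median of 0.25. Cd83 rose by 1.73 ± 0.25, Tnfsf14, the ligand LIGHT, by 1.14 ± 0.14 and Cd200 by 0.70 ± 0.072, while Tnfrsf9, the activation receptor 4-1BB, fell by 1.05 ± 0.053. Of 21 naive, memory and homing receptors tested, 7 rose, 7 fell and 7 did not pass, with a median of -0.16. Cxcr5, the follicle homing receptor, was at 7.12 ± 1.95 CPM against 1.26 ± 0.288 CPM (SD, n = 4) and rose by 2.52 ± 0.28, and Cxcr3 rose by 0.68 ± 0.078. Cxcr6 and Ccr2, receptors of tissue effector cells, fell by 1.16 ± 0.054 and 1.11 ± 0.13. Il7r, the interleukin 7 receptor of memory cells, was at 33.5 ± 14.2 against 31.6 ± 15.6 CPM and did not pass (0.07 ± 0.100).

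Among secreted factors falls prevailed. Of 16 cytokine and chemokine genes, 9 fell, 2 rose and 5 did not pass, with a median of -0.97, or -0.82 with Il21, at 0 in all members, put at the limit of 3 UMIs over the members. Ifng, the interferon of cytotoxic cells, was at 75.1, 178, 312 and 263 CPM in members against 454, 645, 418 and 481 CPM and fell by 1.28 ± 0.14, although 1 member cell held 20.6% of its UMIs in members. The chemokines Ccl5 and Ccl3 fell by 1.37 ± 0.072 and 1.39 ± 0.066. Xcl1, the chemokine that attracts cross-presenting dendritic cells, was at 2716, 3844, 2126 and 2246 CPM in members against 2132, 2738, 1531 and 2077 CPM and rose by 0.35 ± 0.040. It was higher within each library, though the levels of the 2 sets overlapped across libraries. When members were divided by their Tcf7 UMIs, those with 1 UMI had 3162, 6312, 3215 and 3065 CPM of Xcl1, whereas those with 2 or more had 2342, 950.0, 1394 and 1261 CPM, below the other cells in 3 of 4 libraries. Ifng was at 77.3, 298, 705 and 403 CPM in those with 1 UMI, above the other cells in replicate 3 alone, and at 73.2, 37.5, 47.9 and 95.8 CPM in those with 2 or more, below the other cells in all 4 libraries. Tcf7 is a gene of the rule and the division was made after the data had been seen, so these levels are given as a description, and the edgeR fit of the division is not used. Cxcl10 rose by 1.57 ± 0.29.

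**Figure D3:**
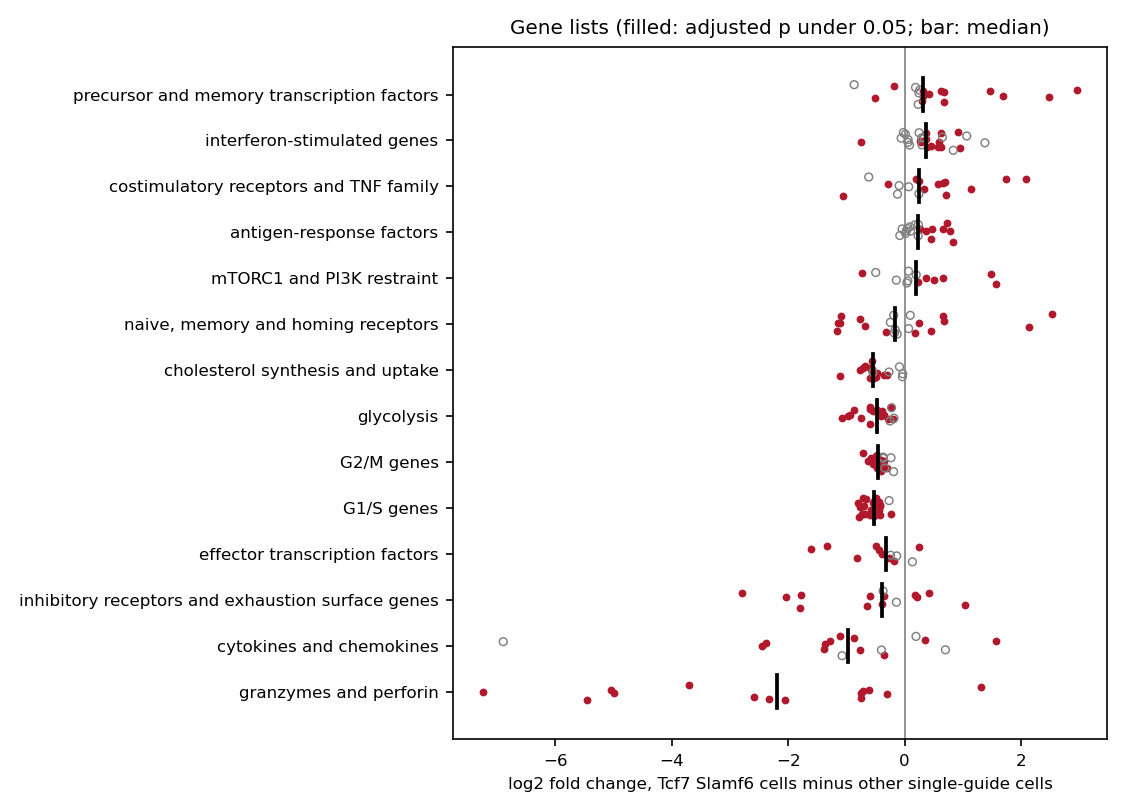
Log2 fold change (horizontal axis) of each tested gene of 14 gene lists, filled where the adjusted p was under 0.05, with the median as a bar. The granzyme list stands lowest with a median of -2.19, and the proliferation, glycolysis and cholesterol lists lie below 0 in every gene shown.

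Proliferation genes were lower in members. Of 26 G1/S genes 25 fell, with a median of -0.53, and of 26 G2/M genes 21 fell, with a median of -0.45, and none rose. Pcna, the DNA polymerase clamp, was at 163 ± 23.3 against 230.3 ± 37.2 CPM (SD, n = 4), Cdk1, the mitotic kinase, at 48.9 ± 9.93 against 84.1 ± 8.98 CPM and Mki67, the proliferation antigen, at 155 ± 47.5 against 209.6 ± 18.0 CPM. After each cell was thinned to 4000 UMIs, which left 38, 32, 63 and 202 cells that met the rule, 44.7%, 34.4%, 42.9% and 54.0% of these had 2 or more UMIs of the G2/M list, against 60.4%, 59.2%, 57.1% and 62.6% of other cells. Among thinned cells, those that met the rule and had such transcripts were thus present in every library, at a lower share than among other cells. Without thinning, Mki67 had a UMI in 29%, 26.5%, 29.1% and 38.7% of members against 48.8%, 47.2%, 42.4% and 38.6% of other cells. In IgG, where members were deeper, Mki67 detection was thus not lower in members. No test was run on these shares.

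Genes of glycolysis and of cholesterol synthesis fell along with them. Of 19 glycolysis genes 16 fell and none rose, with a median of -0.47. Slc2a3 and Slc2a1, the glucose transporters, fell by 1.07 ± 0.098 and 0.75 ± 0.100, Aldoa by 0.60 ± 0.038 and Ldha, lactate dehydrogenase, by 0.47 ± 0.038. Of 20 genes of cholesterol synthesis and uptake 15 fell and none rose, with a median of -0.54. Idi1 and Fdps, enzymes of the isoprenoid steps, fell by 0.72 ± 0.092 and 0.59 ± 0.072. Of 13 tested genes that restrain mTORC1 or PI3K, 6 rose and 1 fell, with a median of 0.20, and Pik3ip1, an inhibitor of PI3K, rose by 1.49 ± 0.16 beside Sesn3. Of 9 amino acid and nutrient transporters, 1 rose and 2 fell, with a median of -0.03. Ribosomal protein genes moved the other way, with 75 of 92 higher, 3 lower and a median of 0.17, and so did 11 of 13 mitochondrial genes, with a median of 0.18.

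No antigen-response gene fell. Of 18, 8 rose, with a median of 0.23. Crtam, an adhesion receptor induced by the T cell receptor, rose by 0.79 ± 0.060 and Egr3 and Egr2 by 0.84 ± 0.13 and 0.74 ± 0.11, while Fos, Jun and Egr1 did not pass. Of 27 interferon-stimulated genes tested 12 rose and 1 fell, with a median of 0.37. Ifi27l2a rose by 0.59 ± 0.050 and Isg20 fell by 0.74 ± 0.088, but the type I response genes Isg15, Ifit1 and Ifit3 had changes of -0.02 ± 0.16, 0.06 ± 0.36 and 0.08 ± 0.40 that did not pass. Of 9 NK receptor and adaptor genes tested, Klrk1 and Cd7 rose, by 0.44 ± 0.054 and 0.43 ± 0.086, and Klrc1 fell with Fcer1g.

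Markers of other cell types were mostly low. B cell markers summed to 88.8 to 124 CPM in members and 54.5 to 197 CPM in others, and of 3 tested 1 rose and 1 fell. Ighm, an immunoglobulin heavy chain, rose by 0.86 ± 0.070, while Ms4a1 and Jchain, which define B and plasma cells, were at 0 in members. Igkc fell, with 91.7% of its UMIs in other cells held by 1 cell. Myeloid markers summed to 11.1 to 19.4 against 8.17 to 11.5 CPM, with 1 of 5 tested higher, tumour or epithelial markers to 7.39 to 10.2 against 10.0 to 31.0 CPM, with 3 of 4 lower, and gamma delta markers to 93.7 to 185 against 93.3 to 147 CPM, with 1 of 2 higher. Dendritic, fibroblast, NK and CD4 or regulatory T cell markers summed to at most 2.0 CPM in any member library, and 1 NK marker was higher in members. Their part in the results was not tested apart from a fit that left out cells with such UMIs. Without cells that had 2 or more UMIs of any such list, 1124 genes passed, of which 1086 were among the 2617 found with all cells.

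Members were then set beside cells of the exhausted and of the circulating memory type. Exhausted-like cells were the 12254 cells with UMIs of Pdcd1 and Havcr2 and none of Tcf7, and memory-like cells were the 738 with UMIs of Klf2 and of S1pr1. These comparisons share the same members, and the genes of either rule were left out. Against exhausted-like cells 1354 (11.0%) of 12259 genes were higher and 1557 (12.7%) lower. The 5 largest rises included Dapl1 (4.98 ± 0.22), Id3 (4.90 ± 0.24), Aff3 (4.47 ± 0.20) and Ccr7 (3.51 ± 0.16). The 5 largest falls were Gzmg, Gzme, Gzmd, Gzmf and Gzmc, from -7.77 to -4.01. Lef1, which did not pass against all other cells, was higher by 0.43 ± 0.12 (edgeR, adjusted p = 0.0127).

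Against memory-like cells 1186 (12.4%) of 9569 genes were higher and 1351 (14.1%) lower. Xcl1 rose by 2.0 ± 0.079, Tbc1d4 by 2.54 ± 0.14, Ccr7 by 2.43 ± 0.12, Bach2 by 2.29 ± 0.18 and Ikzf2 by 1.79 ± 0.11. The largest rises were Gsta4, a glutathione transferase (3.80 ± 0.45), Bdh2 (3.61 ± 0.30), Cldn10 (3.54 ± 0.39), Tnfsf8 (2.93 ± 0.24) and Bcl6 (2.91 ± 0.36). The largest falls were Klrg1, a receptor of effector memory cells, with 7 UMIs in all members (-4.38 ± 0.39), Lmna (-3.5 ± 0.41), Rap1gap2 (-3.0 ± 0.39), Rasgrp2, an activator of integrin signalling (-2.90 ± 0.12), and Gpsm2 (-2.57 ± 0.26). Klf3, a relative of Klf2, fell by 2.34 ± 0.16, S1pr4 by 1.5 ± 0.11 and Lef1 by 1.19 ± 0.12, while Id3 did not pass (0.38 ± 0.20). Of 18 antigen-response factors 15 were higher in members and 1 lower, with a median of 0.87, and Tox was higher by 0.70 ± 0.082. Gzmb and Gzma fell by 1.75 ± 0.072 and 2.11 ± 0.12, and all 26 G2/M genes were lower, with a median of -1.20 against 0.00 over all genes tested.

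Cells that met the Tcf7 and Slamf6 conditions but held 1 UMI of Klf2 or S1pr1 (167 cells) or more (365 cells) were compared as well, a comparison added after the data had been seen. In members 452 (4.96%) of 9113 genes were higher and 583 (6.4%) lower. Bdh2 (2.02 ± 0.24), Lta (1.5 ± 0.27), Fcrl1 (1.47 ± 0.27), Xcl1 (1.46 ± 0.075) and Tnfsf8 (1.42 ± 0.21) had the largest rises, and Ccr7, Sesn3, Ikzf2 and Tbc1d4 were higher by 0.65 to 0.78. Gzmf, Rasgrp2, Serpinb1a, Klf3 and Ifngas1 had the largest falls, from -3.29 to -1.76. Lef1 (-1.09 ± 0.12), Il7r (-0.70 ± 0.14) and Id3 (-0.69 ± 0.15) were lower in members.

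**Figure D4:**
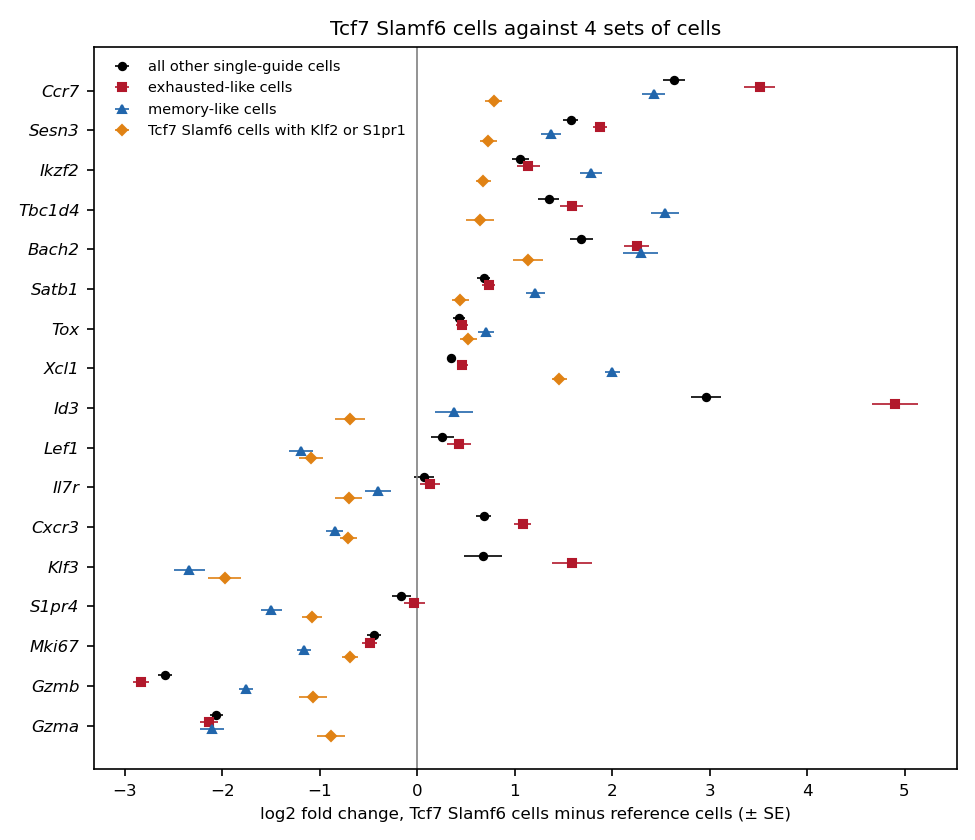
Log2 fold change ± SE (horizontal axis) of 17 genes between Tcf7 Slamf6 cells and 4 sets of reference cells, marked by colour and symbol. Ccr7, Sesn3, Ikzf2, Tbc1d4, Bach2, Satb1, Tox and Xcl1 lie above 0 against all 4 sets, while Lef1, Il7r, Cxcr3 and Klf3 lie above 0 against exhausted-like cells and below 0 against memory-like cells, not all of them past the threshold.

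Shares of members were compared between treatments. Before any correction for depth, they were 3.92%, 3.75% and 2.63% of single-guide cells under anti-PD-1 and 4.02% under IgG, at unequal depth. After thinning to 4000 UMIs per cell, which left out 25, 27, 236 and 1968 shallower cells, the share was 1.5% (exact Clopper-Pearson 95% interval 1.07 to 2.06), 1.24% (0.847 to 1.74) and 1.0% (0.770 to 1.28) under anti-PD-1 and 2.09% (1.81 to 2.39) in IgG. As deposited, the difference of the anti-PD-1 mean from IgG was -0.59 percentage points (exact p = 0.5). After thinning, the anti-PD-1 mean of 1.25% ± 0.25 (SD, n = 3 libraries, which may be technical replicates) differed by -0.84 percentage points from the single IgG library, and the two-sided exact permutation test gave p = 0.25, the smallest p that 4 libraries allow. Intervals cover counting error only. After thinning, Klf2 was detected in 13.9%, 13.9%, 5.39% and 3.90% of all single-guide cells, against 29.3%, 29.6%, 10.2% and 5.98% before it. With Tcf7 and Slamf6 alone the difference was -0.39 percentage points (exact p = 0.5). Memory-like cells had the opposite order, with 2.14% ± 0.69 against 0.393% after thinning (exact p = 0.25).

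**Figure D5:**
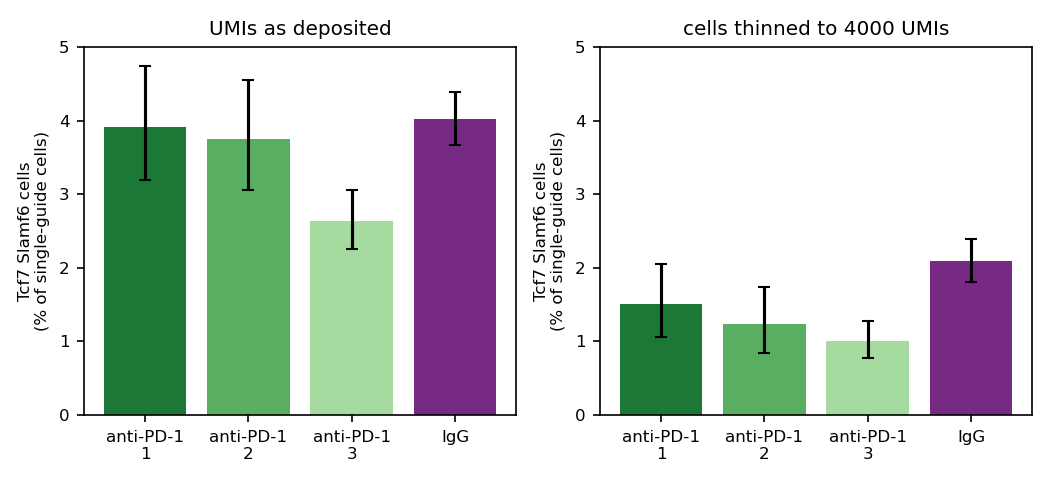
Tcf7 Slamf6 cells as a percentage of single-guide cells (vertical axes) in each library, with UMIs as deposited (left) and after thinning to 4000 UMIs per cell (right), and exact 95% intervals of counting error. After thinning, IgG stands at 2.09% and the anti-PD-1 replicates between 1.0% and 1.5%.

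Gene levels in members were compared between treatments over 4 sums, which assumes the same spread for the lone IgG library as for the replicates. No gene passed among 9270 (0.0%) in edgeR, 460 had p under 0.05 before adjustment, and 2 passed in DESeq2. Ccr7 had a change of 0.40 ± 0.19, Sesn3 of 0.05 ± 0.21, Tbc1d4 of -0.11 ± 0.26 and Ikzf2 of -0.41 ± 0.28, anti-PD-1 minus IgG. The smallest adjusted p in edgeR was 0.3, shared by the histone genes Hist1h2bj, Hist1h1b and Hist1h1e, with changes of -1.65 ± 0.27, -1.90 ± 0.33 and -1.5 ± 0.27, and by Ccl5, with 1.06 ± 0.19. These genes were named after their values were seen. Without replicate 3, 515 genes passed, 278 higher and 237 lower, so the count rests on whether that library is included. Replicates 1 and 2 share a name in their titles and replicate 3 does not, so in that subset treatment and this grouping cannot be told apart.

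Whether the difference between members and other cells itself differed between the anti-PD-1 libraries and the IgG library was tested as an interaction, in which 91 of 13708 genes (0.664%) passed, 22 higher and 69 lower in the anti-PD-1 libraries. The IgG side of this test was 1 library, whose spread was not measured and was assumed to equal that of the replicates, so treatment and that library cannot be told apart. Mki67 had an interaction of -0.58 ± 0.12 (edgeR, adjusted p = 3.77e-04) and Gzmb of -0.45 ± 0.10, whereas Gzma had 0.76 ± 0.10 and Ccl5 0.43 ± 0.085. Gzmb differences of members from other cells were -2.24, -3.06, -2.83 and -2.25 on the log2 scale, so that replicate 1 did not stand apart from IgG, and those of Ccl5 were -0.88, -1.10, -1.78 and -1.69, where IgG lay within the range of the replicates. For Mki67 the difference between members and other cells was -0.54, -0.57, -0.73 and -0.04, nearest to 0 in IgG. Among the markers, Tbc1d4 had 0.71 ± 0.16 (adjusted p = 0.00309), and its difference was 1.20, 1.97, 1.5 and 0.86. Ccr7 (0.35 ± 0.15), Sesn3 (0.40 ± 0.14) and Ikzf2 (-0.33 ± 0.12) had adjusted p of 0.649, 0.252 and 0.261. DESeq2 called 8 genes, and edgeR called 47 without replicate 2 and 165 without replicate 3.

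Guides were spread widely over the members. They carried 244 of 276 guides, 82 of 83 targeted genes had a member, 96 members carried sgNT, and the commonest guide was in 24 members (2.86%). Targets were compared by their number of member and other cells per library in edgeR. The test needed 10 members, which 32 of 84 targets reached, with sgNT counted as 1 target, so targets with a low share rarely entered and the tested shares lean high. None passed (0 of 32, 0.0%), none had an unadjusted p under 0.05, and the smallest adjusted p was 0.80. The largest changes were in Setd1b, with 10 of 146 cells (6.85%, 1.04 ± 0.65), Aspa with 5.56% (0.72 ± 0.55), Slc7a10 with 5.47% (0.67 ± 0.62), Cyp4a30b with 5.51% (0.65 ± 0.54) and Gldc with 5.76% (0.64 ± 0.44). Elovl1, a fatty acid elongase, had 11 of 295 cells (3.73%, 0.03 ± 0.44), 2.0%, 1.43% and 4.29% under anti-PD-1 and 5.71% in IgG, and sgNT had 96 of 2730 (3.52%, -0.13 ± 0.27). Slc5a12, a lactate transporter, had 11 of 282 cells (0.15 ± 0.45). Its guides gave 0 of 58, 3 of 138 and 8 of 86 cells. The guides of Elovl1 gave 2 of 98, 2 of 98 and 7 of 99, and those of Setd1b 1 of 44, 6 of 52 and 3 of 50, so 1 guide held most members of each of these targets. Pik3cd, a PI3K subunit, had 24 of 504 (0.52 ± 0.29), all from 1 guide. Pgam2, with 11 of 341 cells, was the only other target below 0 (-0.10 ± 0.43). Man1b1, named after its value was seen, had 0 of 211 cells, which allows a share of up to 1.42%.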

How the data were processed

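Single-cell RNA and guide UMIs were measured in 4 libraries with Chromium 3' v3.1 chemistry. The authors deposited raw UMI counts per gene and barcode and the number of guides called per barcode, also a count. The submitters' processing notes name Cell Ranger 3.1.0, mm10, Seurat and R 3.6.3. Libraries held 142945121 to 155974184 gene UMIs. Member cells, gene lists and tests were chosen with earlier results of these data known. UMIs were summed per library and class (members 1621337 to 4001340 UMIs) and tested with edgeR 4.0.16 (R 4.3.3), with filterByExpr, TMM and the library as a term, at a Benjamini-Hochberg adjusted p of 0.05. DESeq2 1.42.0 was an alternative. The SE is the log2 fold change divided by the root of F. The steps were tested on simulated data. Cells were thinned to 4000 UMIs for shares, which were compared by exact permutation over libraries. Intervals cover counting error only. Promoters came from RefSeq GRCm38.p6.

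Genes were named by rule: the 15 largest rises and falls past the threshold with 1 direction in all 4 libraries and at least 10 CPM in the higher class, the 4 markers, the 5 largest each way in the other comparisons, and 2 to 4 genes per list. Further list genes were named for their known roles after values had been seen. Only 2 tested targets lay below 0, and of the lowest 5 targets Elovl1, Pgam2 and sgNT are described. Some genes that the rule names are not reported here.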

Additional observations from a re-analysis of the deposited data

Results flagged for a closer look

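The difference of members from other cells differed between the anti-PD-1 libraries and the lone IgG library for 91 genes in edgeR's interaction test and for 8 in DESeq2. The spread of the IgG side was not measured, so treatment and that library cannot be told apart, and the 10 largest with at least 10 CPM are given here as anti-PD-1 minus IgG on the log2 scale, with no explanation tested. Cd74, the class II invariant chain, had 2.33 ± 0.28, with differences of members from other cells of 2.32, 1.04, 2.46 and -0.04, the last value being that of IgG, and 1 member cell held 22.5% of its member UMIs. Cd200r1 had 1.45 ± 0.34, Ifitm1 0.97 ± 0.15, Cd7 0.80 ± 0.13 and Klra5 0.77 ± 0.20. Ifitm1 and Klra5 were lower in members of every library, while Cd7 differences were 0.82, 0.73, 0.45 and -0.15. Igkc had -3.22 ± 0.65, with 91.7% of its UMIs among other cells in 1 cell, and without replicate 3 the value was 0.092. Hist1h2bj had -1.45 ± 0.22, with differences of -1.18, -1.52, -1.35 and 0.04, Pkmyt1 -1.45 ± 0.35, Poc1a -1.32 ± 0.36 and Hist2h2bb -1.11 ± 0.28.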

How the results depend on the processing

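Against other single-guide cells, 2617 genes passed. The number was 1671 to 2324 when each library was left out (1671 without replicate 3), 1737 with DESeq2, 1571 in replicates 1 and 2 alone, 1215 from thinned counts, 1433 with at least 2 UMIs of Tcf7 and Slamf6, 1124 without cells with markers of other types and 303 in nontargeting cells alone. With no replicate block, which pairs members and others of 1 library, it was 594. All 33 named genes kept direction and threshold under 14 of 16 alternatives, and 3 lost the threshold with no replicate block and 3 in nontargeting cells. Most of them were picked from the same data for the largest changes with 1 direction in all 4 libraries, so this outcome was likely. Of all 2617 calls, 11.2% (nontargeting cells alone) to 97.9% (UMIs within 3 MAD, median absolute deviations) were called again. DESeq2 called 1200 genes against memory-like cells, where edgeR called 2537. By treatment, members had 0 genes, 2 with DESeq2, 122 with no filter, 12 from thinned counts, and 0 to 515 when a replicate was left out. Tbc1d4 and Ikzf2 reversed to 0.095 and 0.025 for replicate 3 minus IgG, with no test. Interaction calls were 91, 8 with DESeq2 and 47 to 165 when a replicate was left out, where Igkc ranged from -4.40 to 0.092, reversed without replicate 3. The cause was not tested. No paired analysis was possible because treatments share no more than 1 replicate number. The target test could not be fitted at a minimum of 20 members, from thinned counts or without IgG, where fewer than 10 targets remained. Depth limits single cells: members are cells with detected UMIs, and cells without a Tcf7 UMI may still express it.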

Other observations

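Barcodes outside the single-guide cells also met the 4-gene rule. After thinning to 4000 UMIs, 1.12%, 1.0% and 0.777% of barcodes with no guide call met it under anti-PD-1 and 2.56% under IgG. Among barcodes with several guides the shares were 0.471%, 0.621%, 1.25% and 2.12%. IgG stood highest in both, with exact p = 0.25, the smallest that 4 libraries allow.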
